A study of Mus musculus with 2 samples.

Results

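Among mouse regulatory T (Treg) cells profiled one by one, 819 of 23896 kept cells carried a transcript of the chemokine receptor gene Cxcr5 together with a transcript of Bcl6, Pdcd1 or Tox2. They had been proposed as follicular-type regulatory cells. A cell was kept with at least 500 detected genes and at most 20% of its transcripts from mitochondrially encoded genes. A kept cell was a member with at least 1 unique molecular identifier (UMI, a tag that marks 1 captured transcript) of Cxcr5 and at least 1 UMI of any of the 3 partner genes. The Mito-high library held 418 such cells of 12217, and the Mito-low library 401 of 11679. They are called co-detected cells below, because the check of their markers carried the follicular name only in part.

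Follicular regulatory T cells are Foxp3-expressing T cells that enter B cell follicles and restrain germinal centre reactions. Cxcr5 is the receptor that guides lymphocytes towards the follicle. Bcl6 is the transcriptional repressor on which follicular T cells depend, Pdcd1 encodes the inhibitory receptor PD-1, and Tox2 encodes a DNA-binding protein that acts with Bcl6 in follicular helper cells. Loss of the egress receptor S1pr1, the homing ligand Selplg and the interleukin-7 receptor Il7r goes with the follicular state, and the adaptor Sh2d1a (SAP) sustains contacts between T and B cells.

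The Treg cells had been stained with MitoTracker, a dye taken up by mitochondria, and a flow cytometric sort parted brightly (Mito-high) from dimly (Mito-low) stained cells. Each population gave 1 droplet library, so no test between them is possible, and all intervals below cover counting error only. The labels used here name no genotype, strain, age, tissue or number of mice. Both libraries share the sort for Treg cells, and no treatment is named for either.

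The 2 libraries held 89996794 UMIs over 12352 barcodes (Mito-high) and 60688904 UMIs over 11901 barcodes (Mito-low). Filters removed 120 and 209 barcodes for few genes and 15 and 13 for a high mitochondrial share. The libraries shared 38 barcodes, 1 of them a co-detected cell in each library. A cluster of 23 Mito-high cells was B cell-like (leading genes H2-Aa, Ebf1 and Cd79a) and held 2 co-detected cells.

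Membership followed depth. Co-detected cells had a median of 9454.5 UMIs against 6069 in the other Mito-high cells, and 6002 against 4631 in Mito-low. Their share was 3.42% (95% Clopper-Pearson interval 3.11 to 3.76%) of kept Mito-high cells and 3.43% (3.11 to 3.78%) of kept Mito-low cells. Across 4 equal-sized depth classes of the Mito-high library it was 1.15%, 2.26%, 2.65% and 7.63% from the shallowest to the deepest. In Mito-low the 4 values were 1.10%, 2.26%, 3.63% and 6.75%. When every cell was first thinned at random to 2000 UMIs, the rule was met by 51 of 12078 Mito-high cells (0.422%) and 82 of 11188 Mito-low cells (0.733%).

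At that equal depth, cells with a Cxcr5 UMI carried a partner UMI somewhat more often than cells without one, within counting error. The share was 17.6% (13.4 to 22.5%) of 289 Mito-high cells with Cxcr5 against 14.1% of those without, and 28.4% (23.2 to 33.9%) of 289 Mito-low cells against 24.0%. The intervals contained the value of the cells without Cxcr5 in both libraries. As measured, the share was higher with Cxcr5 in 8 of 8 depth classes, and in 6 of them its interval lay above the share without Cxcr5 (62.5%, 57.3 to 67.4%, against 52.2% in the deepest Mito-high class), though cells within a class still differ in depth. Pdcd1 was found in 6.23% (3.73 to 9.67%) of thinned Mito-high Cxcr5 cells against 3.21% of the rest, but in 8.997% against 10.3% in Mito-low. Bcl6 stood at 9.34% against 9.16% in Mito-high and 10.0% against 7.42% in Mito-low, and Tox2 at 3.81% against 2.71% and 13.5% (9.78 to 18.0%) against 9.40%. Thus only the intervals of Pdcd1 in Mito-high and Tox2 in Mito-low lay above the value of the cells without Cxcr5. The Tox2 interval still overlapped that of the cells without Cxcr5 (8.85 to 9.96%). Neither difference held after thinning to 1000 UMIs. Pdcd1 in Mito-high was then at 1.38% (0.167 to 4.89%) against 1.73%, and Tox2 in Mito-low at 7.45% (3.91 to 12.7%) against 5.24%. For scale, B cells should largely lack Pdcd1 and Tox2. Each had a UMI in 1 of the 23 B cell-like cells as measured (4.35%, at a median of 3104 UMIs). After thinning to 2000 UMIs each was in 0 of 22 (0 to 15.4%). Foxp3 was in 0 of 23 as measured, which by a limit of 3 counts allows a share of up to 13.0%. As measured, 7.19% of the kept Mito-high cells had a Cxcr5 UMI, and 6.28% of the Mito-low ones did. B cells express Cxcr5 themselves and give no background value for it.

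**Figure D1:**
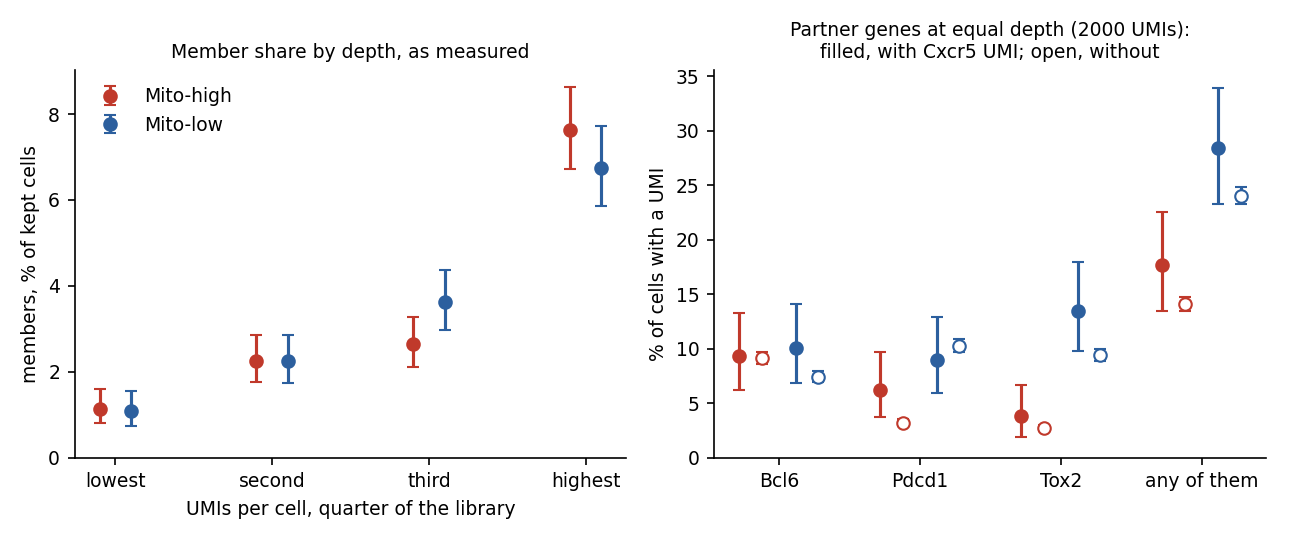
Left, share of kept cells that met the rule (members, %, with 95% Clopper-Pearson intervals) in 4 depth classes of each library, as measured; the share is highest in the deepest class of both libraries (7.63% and 6.75%). Right, share of cells with a UMI of each partner gene after thinning to 2000 UMIs, for cells with a Cxcr5 UMI (filled) and without (open); the any-partner intervals of the filled points reach the open points in both libraries.

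The partner that admitted a cell differed between the libraries. Bcl6 was present in 279 of 418 Mito-high co-detected cells (66.7%) and 193 of 401 in Mito-low (48.1%). Tox2 was present in 133 (31.8%) and 225 (56.1%), and Pdcd1 in 167 of each (40.0% and 41.6%). Bcl6 was the only partner in 176 Mito-high cells (42.1%) and 92 Mito-low cells (22.9%). All 4 rule genes were found in 27 and 22 cells, and 2 or more Cxcr5 UMIs in 73 and 91. Exactly 1 Cxcr5 and 1 partner UMI, the edge of the rule, described 167 Mito-high cells (40.0%) and 128 Mito-low cells (31.9%). Among all kept Mito-low cells thinned to 2000 UMIs, Pdcd1 was in 10.3%, Tox2 in 9.50% and Bcl6 in 7.49%; in Mito-high Bcl6 was in 9.17%, Pdcd1 in 3.28% and Tox2 in 2.74%.

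Levels below are in CPM (UMIs of a gene divided by all UMIs and scaled to parts per 1e6), summed over cells thinned to 2000 UMIs, which left 416 Mito-high and 395 Mito-low co-detected cells. Ratios are log2 of the CPM plus 2, for 3474 genes that reached 50 CPM in 1 or more of the sums, without the 4 rule genes. A gene is counted as higher or lower at 1.5-fold, as a description of size and not as a test. The cells were chosen from these same counts, so the comparison with other cells describes them.

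Some genes known from follicular T cells were higher in co-detected cells, and most differed by less than 1.5-fold. Of 35 listed genes other than the rule genes, 22 were measured. In Mito-high, 8 were 1.5-fold higher and 1 lower (Lef1), with a median log2 ratio of 0.44 against 0.07 over all measured genes, of which 5.87% were higher and 1.7% lower. In Mito-low, 4 were higher and 0 lower, with a median of 0.26 against 0.03, where 2.96% of all were higher and 2.33% lower. Sh2d1a was at 302 CPM (266 to 341) in Mito-high co-detected cells against 153 CPM in the others, and at 411 CPM (368 to 459) against 213 CPM in Mito-low. Tnfsf8, which encodes the CD30 ligand, was at 494 against 269 CPM in Mito-high and 387 against 207 CPM in Mito-low. In both libraries these genes lay above the other cells by more than their counting intervals. Cd200, a ligand of an inhibitory receptor on myeloid cells, was at 72.1 against 49.7 CPM and 76.0 against 45.8 CPM. Btla, an inhibitory receptor, was at 151 against 89.5 CPM and 114 against 76.5 CPM.

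Other follicular genes reached a 1.5-fold difference in 1 library only, or in neither. Maf, a transcription factor that drives interleukin-21, was at 141 against 74.9 CPM in Mito-high and at 328 against 305 CPM in Mito-low. Nfatc1, a T cell receptor-dependent transcription factor, was at 132 against 62.7 CPM and at 173 against 128 CPM. Icos, the costimulator needed for follicular T cells, was at 171 against 153 CPM in Mito-high and below the other cells in Mito-low, at 335 against 433 CPM. The helper cytokine Il21 gave 1 UMI in Mito-high co-detected cells and 0 in Mito-low, where a count of 0 allows up to 3.80 CPM. Ascl2, which can switch on Cxcr5, likewise gave 1 and 0.

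Genes of Treg identity differed in both directions, none of the named ones by 1.5-fold in Mito-high. In Mito-low Foxp3 was more than 1.5-fold lower, with its interval below the level of the other cells. It lay under the 50 CPM floor in every sum and is not in the counts of measured genes. Foxp3, the factor that defines Treg cells, was at 21.6 CPM (12.8 to 34.2) against 28.0 CPM in Mito-high and 25.3 CPM (15.5 to 39.1) against 44.8 CPM in Mito-low. A Foxp3 UMI was found in 4.33% of thinned Mito-high co-detected cells against 5.38% of the others, and in 5.06% against 8.21% in Mito-low; without thinning the shares were 16.3% against 15.98% and 17.5% against 17.3%. Ikzf2 (Helios) was at 1726 against 1219 CPM and 2189 against 1865 CPM. Ctla4, the inhibitory receptor of Treg cells, was at 1340 against 1032 CPM and 1815 against 1552 CPM. Il2ra, the interleukin-2 receptor alpha chain, was at 168 against 217 CPM and 139 against 155 CPM. All 7 T cell markers were detected in co-detected cells of both libraries, summing to 4029 CPM (Mito-high) and 4537 CPM (Mito-low).

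Of 21 genes listed for follicular regulatory cells, 13 were measured. In Mito-high 4 were 1.5-fold higher and 0 lower, and in Mito-low 1 was higher and 1 lower (Il10). Over all measured genes the shares were 5.87% higher and 1.7% lower in Mito-high, and 2.96% and 2.33% in Mito-low. The Mito-low counts of 1 are too small to set apart from those shares. The decoy receptor Il1r2, which binds interleukin-1 without signalling and is a known mark of follicular regulatory cells, was at 46.9 against 16.3 CPM in Mito-high and 60.8 against 27.1 CPM in Mito-low. The other 3 in Mito-high were Tnfrsf9 (4-1BB, a costimulatory receptor) at 425 against 235 CPM, Nt5e (CD73, which makes adenosine) at 157 against 78.3 CPM and Nrn1 (neuritin) at 62.5 against 29.0 CPM. The Nrn1 ratio changed sign when the rule was applied after thinning. In Mito-low these 3 stood at 542 against 474, 168 against 163 and 37.97 against 31.0 CPM.

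In both libraries together, 43 genes were 1.5-fold higher (1.24% of those measured), 18 lower (0.518%) and 5 in opposite directions (0.144%). Of the 43 higher genes 20 reached 50 CPM only in co-detected cells, and of the 18 lower genes 10 only in other cells, so they passed the floor only through the group where they were high. Leaving out predicted gene models, receptor segments and ribosomal genes, the 12 genes highest by the smaller of their 2 ratios were Dnase1l3, Ryr2, Jazf1, Il1r2, Tbc1d4, Rad51b, Phactr2, Sh2d1a, Rgs9, Hmgn3, Itgb8 and Sh3gl3. Dnase1l3, a secreted nuclease that digests chromatin outside cells, was at 22.8 CPM (13.7 to 35.7) against 4.84 CPM in Mito-high and 53.2 CPM (38.3 to 71.9) against 13.9 CPM in Mito-low, log2 ratios of 1.86 and 1.80. Tbc1d4, a regulator of glucose transporter traffic, was the most abundant of the 12 in Mito-high, at 367 CPM (327 to 410) against 170 CPM; in Mito-low it was at 411 CPM (368 to 459) against 178 CPM. Ryr2, the calcium channel of the heart's sarcoplasmic reticulum, was at 44.5 against 16.6 CPM and 109 against 29.2 CPM. Jazf1, a transcriptional cofactor, was at 52.9 against 17.2 CPM and 63.3 against 26.5 CPM. Itgb8, the integrin chain that activates latent TGF-beta, was at 61.3 against 22.0 CPM and 78.5 against 40.4 CPM. Rgs9, a regulator of G protein signalling, was at 52.9 against 13.0 CPM and 40.5 against 20.3 CPM; its Mito-low ratio changed sign when cells were thinned to 1000 UMIs. Of the 12 only Tbc1d4, Phactr2 and Sh2d1a also reached 50 CPM in the other cells of a library. No ratio of the other 11 over other cells changed sign under any alternative tried.

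By the same ranking the 12 lowest genes were Il1rl1, Neb, Klrg1, Igfbp4, S100a4, Itgae, Pgm2l1, Ppp3ca, S100a6, Lfng, Iqgap2 and Grap2. Il1rl1 encodes ST2, the interleukin-33 receptor of tissue Treg cells. It was at 3.61 CPM (3 UMIs, 0.744 to 10.5) against 21.3 CPM in Mito-high and 7.59 CPM (6 UMIs, 2.79 to 16.5) against 63.4 CPM in Mito-low, the lowest ratio of the 12 in both (-2.05 and -2.77). S100a4, a calcium-binding protein of motile cells, was at 163 CPM (137 to 193) against 308 CPM and 233 CPM (200.5 to 269) against 694 CPM. Klrg1, an inhibitory receptor of effector Treg cells, was at 6.01 CPM (5 UMIs) against 14.1 CPM in Mito-high and 32.9 against 103 CPM in Mito-low. Itgae, the CD103 chain that binds epithelial E-cadherin, was at 10.8 against 22.2 CPM and 39.2 against 69.4 CPM. Ppp3ca, a calcineurin catalytic subunit, was at 78.1 against 134 CPM and 86.1 against 143 CPM. The Mito-high ratios of Klrg1, Itgae, Pgm2l1, Ppp3ca and Lfng, but not of Il1rl1, S100a4 or S100a6, changed sign under at least 1 stricter choice of members or cells. Inside cluster 2, described below, S100a4 and S100a6 were not lower in co-detected cells.

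**Figure D2:**
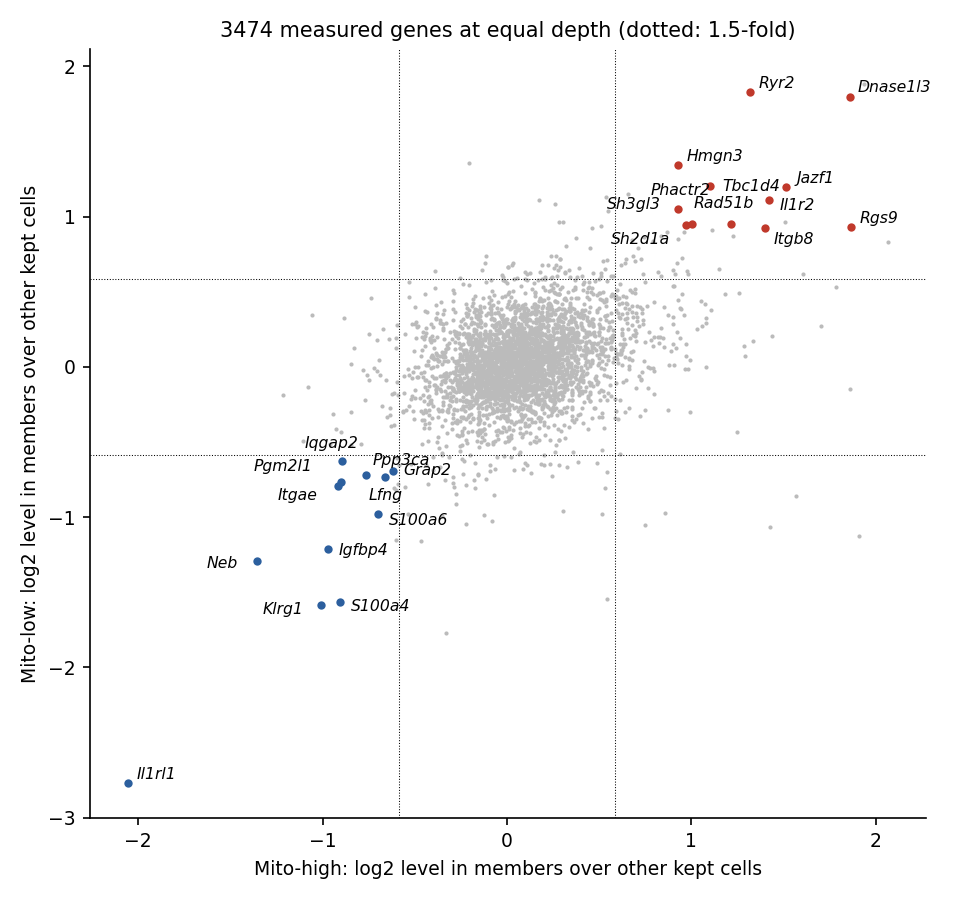
Each point is 1 of 3474 measured genes; the axes give log2 of the level in co-detected cells over that in the other kept cells, Mito-high across and Mito-low up, at 2000 UMIs a cell. The 12 highest ranked genes are in red and the 12 lowest in blue; of these Il1rl1 lies farthest down (-2.05 and -2.77) and Dnase1l3 leads the red ones by the smaller of its ratios (1.86 and 1.80).

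Lists of genes by function were counted in the same way. Over all measured genes 5.87% were higher and 1.7% lower in Mito-high, and 2.96% and 2.33% in Mito-low. A count of 1 in lists this short is not set apart from those shares. Of 15 measured tissue and effector Treg genes, 4 were higher and 5 lower in Mito-high, and 0 higher and 7 lower in Mito-low. The 5 lower in Mito-high (Klrg1, Il1rl1, Itgae, S100a4 and S100a6) were also lower in Mito-low, and the 4 higher were Rora, Nfil3, Penk and Cd44. Of 13 measured genes known to oppose the follicular program, 3 were lower and 0 higher in Mito-high, and 3 lower and 1 higher in Mito-low. The 3 lower in Mito-high were Klf2, S1pr1 and Selplg, and in Mito-low Selplg, Id2 and Il7r. S1pr1 was at 107 against 210 CPM and 96.2 against 138 CPM, Selplg (the P-selectin ligand) at 115 against 176 CPM and 105 against 161 CPM, and Il7r at 133 against 177 CPM and 243 against 393 CPM. Of 14 measured resting T cell genes, 6 were lower and 0 higher in Mito-high, and 2 lower and 3 higher in Mito-low. Ccr7, which guides T cells to the T cell zone, was at 441 against 479 CPM in Mito-high but at 195 against 120 CPM in Mito-low. Of 17 T cell receptor-induced early genes, 2 were higher and 0 lower in Mito-high, and 1 higher and 1 lower (Nfkbid) in Mito-low; Nr4a2, an orphan nuclear receptor, was at 252 against 150 CPM and 405 against 221 CPM. None of 13 mitochondrially encoded protein genes and none of 25 measured nuclear respiratory chain genes was 1.5-fold higher or lower in either library, with medians of 0.04 and 0.11 (mitochondrial) and 0.11 and -0.06 (nuclear). None of 14 dissociation and heat stress genes differed by 1.5-fold either.

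A change of scaling moves the balance of these counts. TMM factors lowered every ratio of co-detected over other cells by 0.14 in Mito-high and 0.13 in Mito-low (log2). The share of the 1.5-fold genes that were higher went from 77.6% to 48.7% in Mito-high and from 56.0% to 24.5% in Mito-low. The follicular list then had 5 and 2 higher genes of 22, beside 112 and 48 of all 3474 genes measured in the main run. A shift of that size also takes the medians of the mitochondrially encoded genes below 0 (-0.10 and -0.02).

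Genes differed in where, along the rule, their level was high or low. The groups were set on UMIs as measured and also differed in depth. Median depth in Mito-high was 5685 UMIs with neither Cxcr5 nor a partner and 6584 with Cxcr5 alone. It was 7032.5 with a partner alone, 7077 with 1 Cxcr5 and 1 partner UMI, and 10991 with more. In Mito-low the 5 medians, in the same order, were 4334, 5286, 5061, 5686.5 and 6289 UMIs. The part of depth in the levels below was not tested. Sh2d1a was at 126 CPM in Mito-high cells with neither Cxcr5 nor a partner, 169 CPM with Cxcr5 alone, 202 CPM with a partner alone, 229 CPM (180.4 to 287) in cells just inside the rule with 1 Cxcr5 and 1 partner UMI, and 350.0 CPM (300.1 to 406) in co-detected cells with more. In Mito-low the 5 values were 189, 266, 243, 262 (202 to 334) and 479.7 CPM (423 to 542). Cells just inside the rule were therefore not separated from cells with Cxcr5 alone in Mito-low. Tbc1d4 was likewise lowest in cells with neither (135 and 138 CPM) and highest in co-detected cells with more UMIs (422 and 461 CPM). Il1rl1 and S100a4 instead were lower in cells with Cxcr5 and no partner than in cells with a partner and no Cxcr5. Il1rl1 was at 6.58 CPM with Cxcr5 alone and 24.8 CPM with a partner alone in Mito-high, and at 10.8 and 68.8 CPM in Mito-low. S100a4 was at 128 and 318 CPM in Mito-high, and at 315 and 560 CPM in Mito-low.

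Cells with 2 or 3 partners but no Cxcr5 UMI, 694 in Mito-high and 1124 in Mito-low at equal depth, shared part of this profile. Before thinning their median depth was 9149.5 and 5576 UMIs, beside 9454.5 and 6002 in co-detected cells. In Mito-high their Sh2d1a level was 308 CPM and their Tbc1d4 level 353 CPM, beside 302 and 367 CPM in co-detected cells. In Mito-low the same cells had 278 CPM of Sh2d1a and 284 CPM of Tbc1d4, beside 411 CPM of each. Their Klrg1 level was 34.6 CPM (Mito-high) and 202 CPM (Mito-low), beside 6.01 and 32.9 CPM in co-detected cells. Klrg1 was thus higher than in co-detected cells where partner genes were found without Cxcr5.

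**Figure D3:**
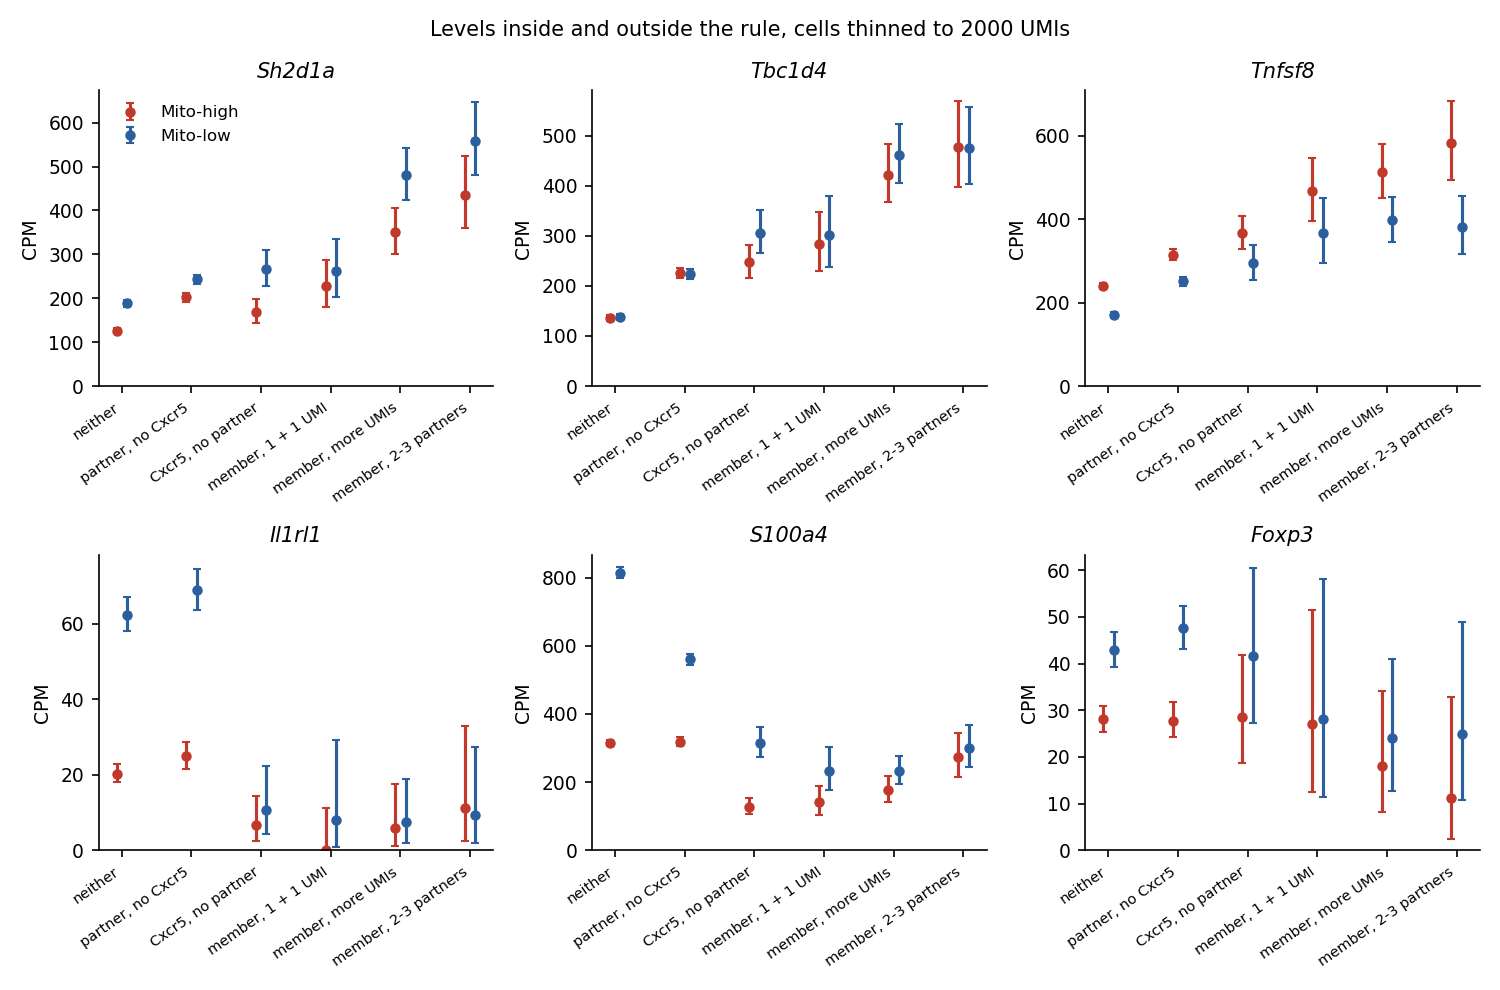
CPM of 6 genes (95% exact Poisson intervals) in groups of cells outside and inside the rule. Mito-high is red and Mito-low blue, and all cells were thinned to 2000 UMIs. Before thinning the groups differed in median depth. Cells with 2 or 3 partners are part of those with more UMIs. Sh2d1a and Tbc1d4 are highest in co-detected cells with more than 1 UMI of a rule gene, whereas Il1rl1 and S100a4 are lower in cells with Cxcr5 and no partner than in cells with a partner alone.

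The partner also went with the profile, in groups of few cells. Bcl6, Tox2 and Pdcd1 were the only partner in 175, 43 and 65 thinned Mito-high cells. In Mito-low the groups held 89, 88 and 57 cells, and 161 cells had 2 or 3 partners. Mito-high cells with Bcl6 as the only partner had 194 CPM of Sh2d1a and 25.7 CPM of S100a4. Those with Tox2 alone had 372 and 442 CPM, and those with Pdcd1 alone 269 and 123 CPM. In Mito-low, Sh2d1a was at 174 CPM with Bcl6 alone, 358 CPM with Tox2 alone and 447 CPM with Pdcd1 alone, against 559 CPM (480.3 to 647) with 2 or 3 partners. Bcl6 alone thus had the least Sh2d1a of these groups in both libraries, an order read from few cells and not tested. Ccr7 had the opposite order in Mito-low, at 433 CPM with Bcl6 alone against 136 CPM with Tox2 alone and 132 CPM with Pdcd1 alone.

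Co-detected cells were spread over several clusters, with the largest share in cluster 2. Clustering of all kept cells without the 4 rule genes gave 11 clusters. Cluster 2, led by Ryr2, B3galt1, C2cd4b, Nr3c2 and Gucy1a1, held 159 of the Mito-high co-detected cells (38.04%, 33.4 to 42.9%) against 11.4% of the other cells. In Mito-low it held 237 (59.1%, 54.1 to 64.0%) against 18.6%. Co-detected cells were nevertheless only 10.5% and 10.2% of that cluster, and Cxcr5 UMIs were in 15.4% and 14.8% of its cells as measured. Cluster 3, led by Ccl5, Lilrb4a, Il10, Klrg1 and Frmd5, had the lowest Cxcr5 share, 3.64% and 3.32%. Cluster 7, led by cell division genes (Birc5, Pclaf, Hist1h1b, Ccna2, Cdca3), held 49 Mito-high co-detected cells (11.7%) against 3.97% of other cells, and 2 in Mito-low (0.499%, 0.0605 to 1.79%) against 0.231%. The median depth of its Mito-high cells was 15636 UMIs. Cluster 0 (Ccr2, S100a4, Ank3) held 15.7% of Mito-low co-detected cells against 34.7% of others. Clusters 1 and 4 (Satb1 and Igfbp4) held 17.9% and 8.61% of Mito-high co-detected cells against 33.4% and 25.2% of others.

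**Figure D4:**
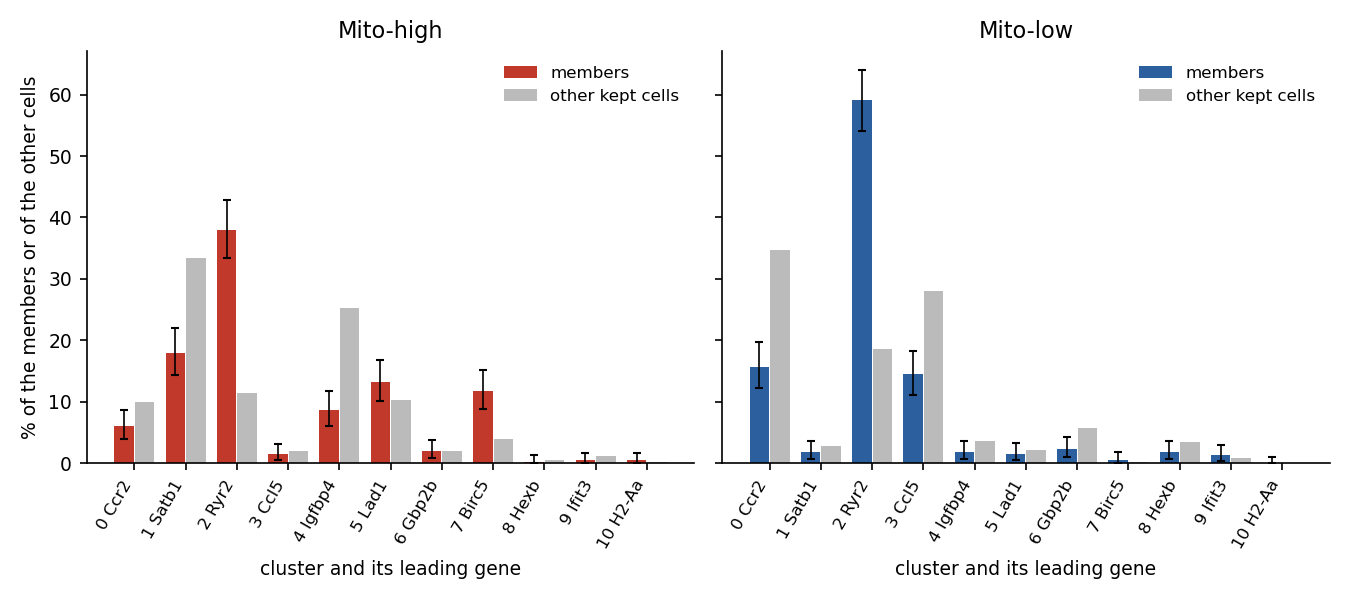
Share (%) of co-detected cells (members, coloured, 95% Clopper-Pearson intervals) and of other kept cells (grey) in each of 11 clusters, named by number and leading gene, in Mito-high and Mito-low. Cluster 2 holds 38.04% and 59.1% of co-detected cells against 11.4% and 18.6% of the others, and the dividing cluster 7 holds 11.7% against 3.97% in Mito-high and 2 co-detected cells in Mito-low.

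With the other cells weighted to the same mix of clusters, most of the difference was gone. The 1.5-fold genes went from 204 higher and 59 lower to 27 and 23 in Mito-high, and from 103 and 81 to 21 and 30 in Mito-low. No gene of the follicular T cell list then reached 1.5-fold in either library, and of the follicular regulatory list Il1r2 did in Mito-low (0.67). Across the 3474 genes, the ratios of the 2 libraries correlated with r = 0.375 (Spearman 0.306) before and r = 0.157 after this weighting, as a description across genes that share cells, depth and thinning. The genes that kept a 1.5-fold difference in both libraries included Dnase1l3 (1.02 and 1.41), Il1rl1 (-2.03 and -1.98), Klrg1 (-0.94 and -0.78), S100a4 (-0.89 and -0.61) and Lfng (-0.70 and -0.73). Sh2d1a fell short of it (0.50 and 0.57), and Ryr2, a leading gene of cluster 2, was at 0.29 and 0.53. Within cluster 2 alone, Dnase1l3 was at 37.97 against 21.8 CPM in Mito-high, on few UMIs, and 74.8 against 23.1 CPM in Mito-low. Sh2d1a was at 399 against 321 CPM and 451 against 339 CPM there. Il1rl1 stayed lower, at 3.16 against 17.6 CPM and 0 against 10.3 CPM, and Lfng at 34.8 against 45.4 CPM and 38.5 against 53.8 CPM. S100a4 did not, at 85.4 against 34.9 CPM and 51.3 against 47.0 CPM. S100a6 was likewise higher, at 82.3 against 65.3 CPM and 118 against 79.4 CPM. Klrg1 was at 3.16 against 5.63 CPM and 12.8 against 12.8 CPM. The part of counting error in these differences was not tested.

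Markers of other cells were measured beside these results. All 16 B cell markers were detected in Mito-high co-detected cells at a summed 549 CPM (500.1 to 602) against 256 CPM in the others. In Mito-low 8 of 16 were detected, at 514 CPM against 408 CPM, with Ms4a1, Ebf1 and Pax5 among those at 0. Ighm made up most of it in Mito-low, at 399 against 302 CPM; in Mito-high it was at 250.0 against 138 CPM, and Cd74, the invariant chain of antigen presentation, at 154 against 61.7 CPM. The Mito-high ratio of Cd74 changed sign when only members with a Foxp3 UMI were taken, and when the rule was applied after thinning. In Mito-high the B cell markers summed to 852 CPM in cells just inside the rule and 348 CPM in those with more UMIs, and to 780.0 CPM where Bcl6 was the only partner. In Mito-low the sums were 407, 563 and 264 CPM. Cd79a, a chain of the B cell receptor, had a UMI in 7 Mito-high co-detected cells (1.67%) against 0.992% of others, and in 2 in Mito-low (0.499%) against 0.381%. The part of B cell RNA in the results was not tested. Without the B cell-like cluster the counts of follicular genes stayed within 1.5 times of their values. That cluster held only 2 Mito-high co-detected cells and 0 Mito-low cells, so leaving it out could hardly change them. Helper cytokine and helper genes (Il21, Il4, Cxcl13, Cd40lg, Ascl2, Il2) summed to 12.02 against 15.7 CPM in Mito-high and 32.9 against 26.8 CPM in Mito-low.

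The last comparison set Mito-high against Mito-low co-detected cells, which asks whether the dye sort divides this population. Of 3474 genes, 180 (5.18%) were 1.5-fold higher and 457 (13.2%) lower in Mito-high. Among the other kept cells the shares were 2.94% and 11.3%. Under TMM, which raised every ratio by 0.12 (log2), the share of 1.5-fold genes that were higher went from 28.3% to 54.3%. Across genes the Mito-high over Mito-low ratios of co-detected and other cells correlated with r = 0.724 (Spearman 0.682), within the same 2 libraries.

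Most follicular genes differed by less than 1.5-fold between the dye classes. Sh2d1a was at 302 against 411 CPM in Mito-high and Mito-low co-detected cells, a log2 ratio of -0.44 (-0.69 to -0.21) beside -0.48 in the other cells. Tbc1d4 stood at 367 against 411 CPM (-0.17, -0.40 to 0.06). Over all measured genes 5.18% were 1.5-fold higher and 13.2% lower in Mito-high co-detected cells. Of the 22 measured follicular genes 1 was higher (Lef1) and 4 lower, near those shares, against 3 and 6 in the other cells. The 4 lower ones were Maf at 141 against 328 CPM, Icos at 171 against 335 CPM, and P2rx7 (a receptor for extracellular ATP) and Zfp831 with log2 ratios of -0.68 and -0.65. Of the rule genes, given as a description, Cxcr5 was at 157 and 209 CPM, Bcl6 at 119 and 101 CPM, Pdcd1 at 73.3 and 108 CPM and Tox2 at 49.3 and 165 CPM. Tox2 in the other cells was at 15.1 and 51.6 CPM.

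Igfbp4, a growth factor-binding protein of resting T cells, was at 45.7 CPM in Mito-high co-detected cells against 1.27 CPM (1 UMI) in Mito-low ones, a ratio with an interval from 2.61 to 10.5 beside 3.63 in the others. Itm2a, a membrane protein of T cells, was at 106 against 24.1 CPM, and H2-T23, a non-classical MHC class I gene, at 194 against 60.8 CPM. Of 14 measured resting T cell genes 8 were higher and 2 lower, against 11 and 1 in the other cells. Stmn1, which destabilises microtubules in dividing cells, was at 186 against 16.5 CPM, and the DNA ligase gene Lig1 at 73.3 against 21.5 CPM. Pclaf, a PCNA clamp-associated factor, was at 88.9 CPM in Mito-high and had 0 UMIs in Mito-low, at least 23.4-fold higher against a limit of 3 counts over the Mito-low sum, with the Mito-high level taken as measured. Snhg6, Rpa3, Mcm7 and Paics had ratios of 1.51 to 2.07, and Hist1h1b, with 1 UMI in Mito-low, one of 4.36 (3.14 to 11.01).

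Of 6 measured S phase genes 4 (Mcm3, Mcm7, Pclaf and Dut) were 1.5-fold higher in Mito-high co-detected cells and 0 lower, against 2 and 0 in the other cells. These values moved with depth and with the dividing cluster. Stmn1 was 1.07 (log2) above the other Mito-high cells, but -0.21 once those were weighted to the same depth, and Lig1 went from 1.70 to 0.63. Leaving out cluster 7 took the Mito-high over Mito-low ratio of Lig1 from 1.68 to 0.66, of Stmn1 from 3.35 to 2.41 and of Hist1h1b from 4.36 to 1.19. With the rule applied after thinning, which left only 51 Mito-high and 82 Mito-low co-detected cells, the ratios of Lig1 and Hist1h1b changed sign. The cause of that change was not tested.

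Abcb1a, the efflux pump P-glycoprotein, was at 142 CPM (117 to 171) in Mito-low against 27.6 CPM (17.5 to 41.5) in Mito-high, a ratio of -2.28 beside -2.72 in the other cells. Il10, an inhibitory cytokine, was at 64.6 against 13.2 CPM, and Klrg1 at 32.9 against 6.01 CPM. Nr3c1, the glucocorticoid receptor, was at 424 CPM (379.9 to 472) against 118 CPM (95.6 to 144). Ptpn13, a phosphatase, was at 216 against 49.3 CPM. Ifit1, induced by type I interferon, was at 109 CPM (87.1 to 134) against 18.0 CPM (10.1 to 29.7), a ratio of -2.47 beside -0.90 in the other cells. Inside cluster 2 alone the Ifit1 ratios were closer, -2.34 in co-detected cells and -1.98 (-2.42 to -1.70) in the others. Isg15, from the same response, was at 338 against 112 CPM. Of 15 measured tissue and effector Treg genes 9 were lower in Mito-high and 1 higher, against 14 and 0 in the other cells. Ccl5, a chemokine of effector T cells, had a ratio of -1.80 in co-detected cells and -3.89 in the others. In Mito-low it was at 127 CPM in co-detected cells against 373 CPM in the other cells. Its ratio changed sign when the rule was applied after thinning. Inside cluster 2 alone the Ccl5 ratios were 0.07 in co-detected cells and -0.23 in the others, both with intervals that included 0. Neb, Art2b, Farp1, Cwc25 and Nav2 had ratios of -1.94 to -1.74.

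**Figure D5:**
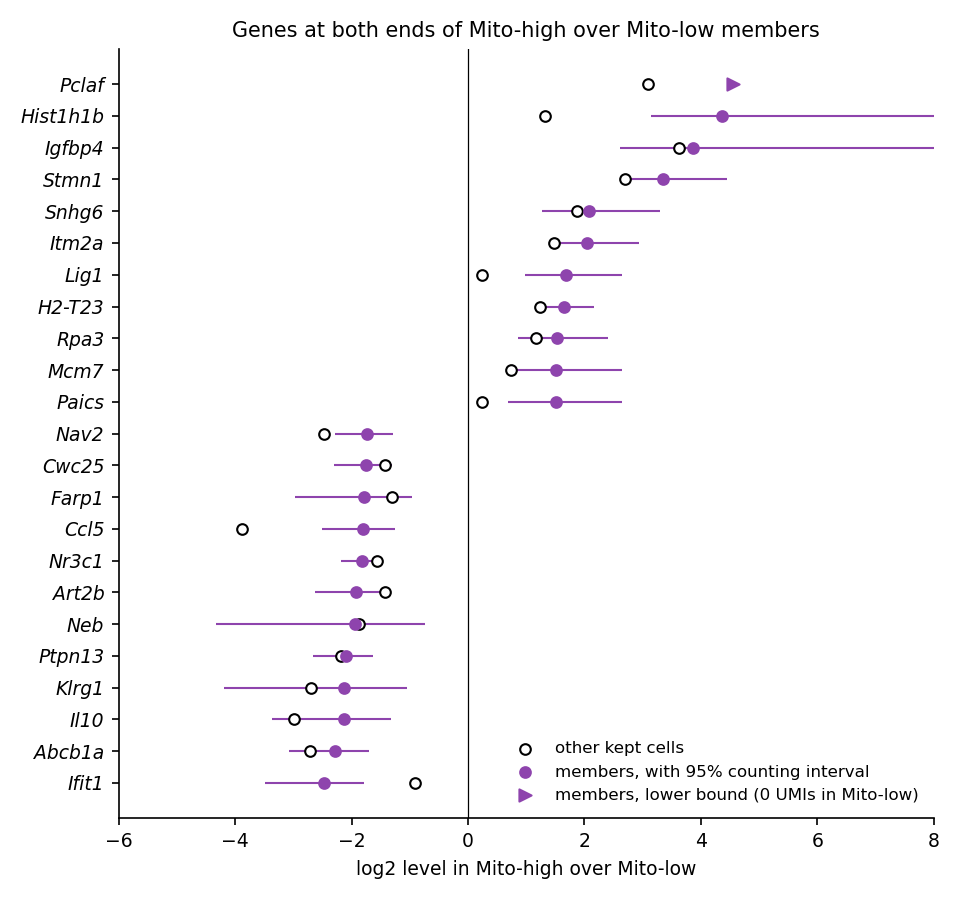
Log2 of the level in Mito-high over Mito-low for 11 of the 12 highest and the 12 lowest genes of co-detected cells (members, purple, with 95% counting intervals, drawn to 8 at most; the triangle is the lower bound of Pclaf) and for the other kept cells (open). Both kinds of cells lie on the same side of 0 for all 23 genes. For Ccl5, Ifit1, Nav2, Lig1, Paics and Hist1h1b the open point lies outside the interval. Pclaf is drawn without an interval, and its open point (3.08) lies below the triangle and below the exact lower limit of 4.22. Inside cluster 2 alone, not drawn, the Ifit1 ratios were -2.34 in co-detected cells and -1.98 in the others. The Ccl5 ratios there were 0.07 and -0.23. The triangle takes 3 counts as the Mito-low limit.

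Since cluster 2 held unequal shares of the co-detected cells, the 158 Mito-high and 234 Mito-low ones in it were also set side by side. Abcb1a stood at 50.6 against 154 CPM, Nr3c1 at 152 against 389 CPM and Isg15 at 158 against 406 CPM. Ccr7 was at 424 against 199 CPM. Sh2d1a was at 399 against 451 CPM, Maf at 203 against 263 CPM and Bcl6 at 120 against 128 CPM. The differences in Abcb1a, Nr3c1, Isg15 and Ccr7 were thus present inside a single cluster, with counting intervals of the ratio on 1 side of 0. The intervals of Sh2d1a and Maf included 0. These differences were not particular to co-detected cells. The log2 ratios in co-detected and other cells of cluster 2 were -1.57 and -2.17 for Abcb1a and -1.34 and -1.22 for Nr3c1. They were -1.35 and -1.36 for Isg15 and 1.09 and 1.15 for Ccr7. Maf was at -0.37 and -0.65, and the interval of the more numerous other cells (-0.84 to -0.48) lay below 0.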

How the data were processed

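The authors deposited raw UMI counts per gene and barcode for 32285 features, 1 table per library. Per the submitters' processing notes, Cell Ranger 7.1.0, Seurat 4.3.0.1 and the genome mm10 were used; the annotation and barcode filters are not stated there. No doublets were removed here, and the co-detected cells were not checked for them.

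Cells with at least 2000 UMIs were thinned to 2000 (fixed seed), summed, and compared as log2 of CPM plus 2 (Python 3.11.15, scipy 1.17.1). Intervals are exact Poisson, Clopper-Pearson or conditional-binomial, at 95%. Kept cells of both libraries were clustered together without integration: 10000 UMIs per cell, log, 2000 variable genes without the rule, mitochondrial, ribosomal and receptor segment genes, 30 components, 15 neighbours, Leiden resolution 0.6 (scanpy 1.11.5). TMM factors came from edgeR 4.0.16. The thinning and ratios were checked on simulated cells.

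Named genes were the 12 at each end of each comparison, leaving out mitochondrial, ribosomal and receptor segment genes and predicted gene models, with at least 10 UMIs in the higher sum and the same direction in both libraries for members against others; up to 4 of each of 16 function and 12 marker lists; the 2 follicular lists; the rule genes; and leading genes of clusters. The members, lists and rules were chosen with earlier results of these data known. Values of some named genes are not reported here.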

Additional observations from a re-analysis of the deposited data

Results flagged for a closer look

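Hist1h1b, a replication-dependent linker histone gene, differed in opposite directions in the 2 libraries. Its log2 ratio of co-detected over other cells was 1.91 in Mito-high (64.9 against 15.8 CPM) and -1.13 in Mito-low (1.27 CPM, 1 UMI, against 5.14 CPM), where the counting interval reached from -7.34 to 0.49. The difference between the libraries was not tested. Of the Mito-high co-detected cells 49 lay in the dividing cluster, and of the Mito-low ones 2; without that cluster the ratios were 0.40 and -1.03.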

How the results depend on the processing

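With 1 library per dye class, no replicate could be left out. No paired analysis was possible because each group is 1 sample. The counts that moved by over 1.5 times are given here, with their main values, and the cause was not tested. The main counts of 1.5-fold genes were 204 higher and 59 lower in Mito-high co-detected cells, 103 and 81 in Mito-low, and 180 and 457 for Mito-high over Mito-low; 8 and 4 follicular genes were higher. With other cells weighted to the same clusters they were 27, 23, 21 and 30, with 0 and 0 follicular genes. Thinning to 1000 UMIs gave 134 lower in Mito-high, 191 higher and 135 lower in Mito-low, and 292 higher in Mito-high over Mito-low; thinning to 3000 gave 36 lower in Mito-high and 2 follicular genes in Mito-low. Without thinning the first 4 counts were 113, 28, 38 and 32, with 4 and 2 follicular genes. TMM, with 3432 genes measured, gave 109, 115, 45, 139, 307 and 258 in the order of the main counts, with 5 and 2 follicular genes. With no filter beyond 10 UMIs the 6 counts were 1352, 1136, 1064 and 1372 of 12852 genes, and 712 and 1303 of 7574. At 100 CPM they were 98, 21, 47, 30, 85 and 208 of 1837 genes.

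Stricter choices of members leave fewer cells, and the counts over all genes rose with them. Measured genes were 3888 with 2 or more Cxcr5 UMIs and 3787 with the rule applied after thinning. They were 4012 with a Foxp3 UMI required and 3595 without B cell gene cells. In Mito-low the higher genes rose from 103 to 491 and 580 in the choices with 7 follicular genes, against 4 follicular genes before. The 7 are therefore no gain particular to that list. With 2 or more Cxcr5 UMIs (0.598% and 0.779% of kept cells) the 6 counts were 688, 435, 491, 348, 590 and 959, with 7 follicular genes in Mito-low. With the rule applied after thinning to 2000 UMIs (0.422% and 0.733%; 0.140% and 0.267% at 1000) they were 732, 464, 584, 329, 620 and 1038. With a Foxp3 UMI required (0.557% and 0.599%) they were 688, 447, 580, 408, 715 and 1105, with 7 follicular genes in Mito-low. Without cells holding a B cell gene UMI (2.07% and 1.96%) they were 328, 200, 420, 332, 400 and 899. Without cells admitted by Bcl6 alone, a choice made after seeing the data, the shares were 1.98% and 2.65% and Mito-high gave 395 higher and 159 lower.

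Log2 ratios of named genes that took the opposite sign were, for Mito-high co-detected over other cells, Stmn1 at -0.21 with depth weights; Lfng at 0.084 and Pgm2l1 at 0.068 with 2 or more Cxcr5 UMIs; Cd74 at -0.067 and Ppp3ca at 0.058 with Foxp3 required; and Klrg1 at 1.06 without B cell gene cells. In Mito-low Rgs9 was at -0.36 at 1000 UMIs. With the rule applied after thinning, Cd74 was at -0.32, Hist1h1b at -3.16 (Mito-low 0.18), Itgae at 1.08, Klrg1 at 0.42, Lig1 at -0.97, Nrn1 at -1.39 and Stmn1 at -1.12 in Mito-high. Mito-high over Mito-low then gave Ccl5 at 0.59, Hist1h1b at -2.02 and Lig1 at -0.78, and Ryr2 at 0.60 with Foxp3 required. Other pseudocounts, another random seed, at most 10% mitochondrial UMIs, at least 1000 genes, and leaving out the dividing or the B cell-like cluster reversed none of these and moved no count beyond 1.5 times. At 3 UMIs or fewer a level is set by counting error.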

Other observations

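Beside Hist1h1b and Pclaf, 3 other genes were 1.5-fold higher in co-detected cells of one library and 1.5-fold lower in those of the other: the immunoglobulin light chain gene Igkc (58.9 against 20.7 CPM in Mito-high and 10.1 against 23.3 CPM in Mito-low), the metallothionein Mt1 (33.7 against 19.3 CPM and 24.1 against 52.1 CPM) and the serine protease inhibitor Serpina3g (18.0 against 9.05 CPM and 27.8 against 56.6 CPM). These 3 were picked with their values in view, and no test was made of the differences.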
